A study of Bos taurus with 4 samples.

Results

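The genes described here are 10 rows of a bovine gene table that encode antibody chains, plasma cell factors and the receptors that carry antibody across the mammary epithelium, out of 31021 rows in all. They were chosen by symbol with their read counts in the same 2 libraries already known, so their ratios are given as a description with no test. IGHG1, IGCGAMMA, IGHM and IGHE encode heavy chain constant regions, and JCHAIN encodes the joining chain. MZB1, IRF4 and POU2AF1 act in plasma cells and their precursors. PIGR and FCGRT encode antibody receptors.

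Antibodies reach milk by receptor transport. Plasma cells beneath the mammary epithelium make IgA and IgM in polymers held by the joining chain, and the polymeric immunoglobulin receptor takes these up at the base of the epithelial cell and releases them into milk. IgG passes by another route, in which the neonatal Fc receptor has been implicated, and in cattle IgG1 is the main antibody of colostrum.

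The samples are primary mammary epithelial cells, grown out and digested from the udder tissue of Chinese Holstein cows, whose RNA was sequenced as messenger and as small RNA. The 4 libraries are 1 of each kind titled HH and 1 of each kind titled LL. The series sets cows whose milk fat was high, at 4.85%, against cows at 3.41%, but the phenotype label gives both RNA-seq libraries the same value and both small RNA libraries the other, so the codes HH and LL are used as given. No treatment, age or number of cows per library is stated in the sources used here, and all groups share the diet and housing. The RNA-seq libraries held 17369144 counts for HH and 16318951 for LL. With 1 library per code there is no replicate check, and each difference is between 2 libraries. Intervals are exact (Clopper-Pearson) 95% binomial intervals and cover counting error of reads only. In bulk RNA, fewer cells of a type and less RNA per cell cannot be told apart.

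The antibody rows formed opposite patterns by class: both IgG heavy chain rows were lower in the HH library, and the IgM and IgE rows were somewhat higher in it. A row was called when its whole interval lay past 2-fold and it had at least 100 summed counts. By that rule 6 of the 10 genes were lower in HH, which were IGHG1, IGCGAMMA, MZB1, IRF4, POU2AF1 and PIGR, and 0 were higher. Over the 12804 rows with enough counts, 1.0% (128) were lower in HH and 1.87% (240) were higher. Because the genes were chosen on this contrast, nothing is read from their share. All 10 genes reached the count minimum, the lowest being IRF4 with 240 summed counts.

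**Figure D1:**
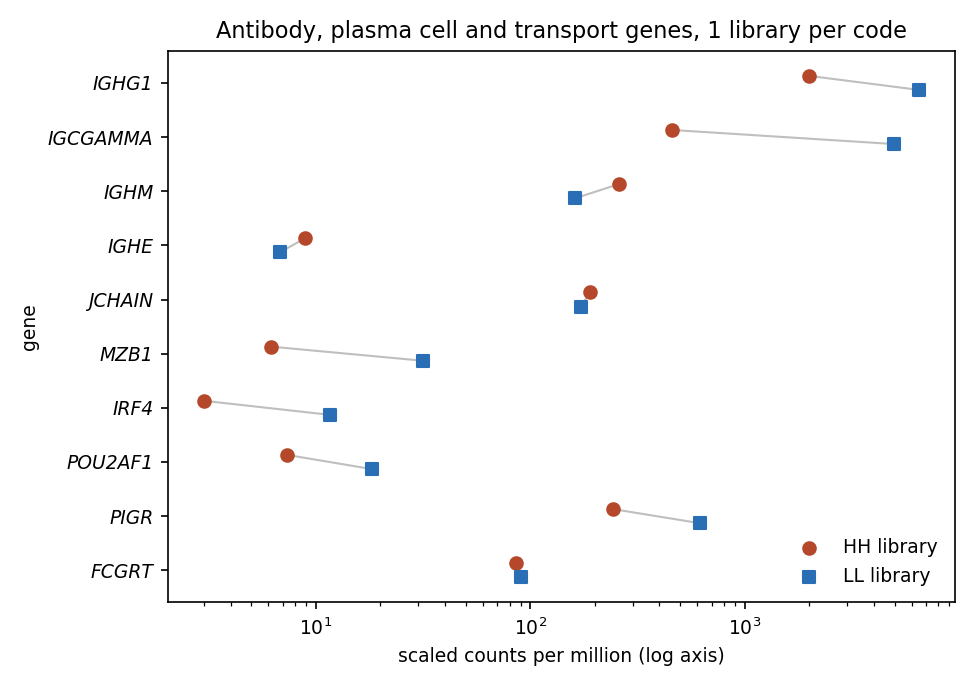
Scaled CPM (log axis) of the 10 genes, with the HH library as a red circle above the LL library as a blue square, 1 library each. IGCGAMMA shows the longest gap, 460 in HH and 4981 in LL, while FCGRT lies at 85.8 in HH and 90.4 in LL.

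IGHG1, the constant region of the IgG1 heavy chain, had 35065 counts in HH and 104231 in LL, or 1986 and 6493 scaled CPM (counts per 1000000). It took 0.202% of all HH counts (0.1998 to 0.2040%) and 0.639% of LL counts (0.635 to 0.643%). Its ratio of HH over LL was −1.71 on the log2 scale (−1.73 to −1.69), a level 3.27-fold lower in HH.

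IGCGAMMA, described in the deposited table as the constant region of the IgG2a heavy chain, had 8124 counts in HH and 79951 in LL, or 460 and 4981 scaled CPM. Its log2 ratio was −3.44 (−3.47 to −3.40), a level 10.8-fold lower in HH. Of the counts on IGHG1 and IGCGAMMA together, IGCGAMMA took 18.8% in HH (18.4 to 19.2%) and 43.4% in LL (43.2 to 43.6%). The IgG rows therefore differed between the libraries both in their sum and in their split. The gamma rows are similar in sequence, and how the counting divided reads that match more than 1 copy is unknown here. Summed over all 4 gamma rows, the log2 ratio was −2.23 (−2.25 to −2.21). The sum does not depend on how reads were split among these rows, but it would depend on reads dropped or counted repeatedly. The other gamma rows are membrane-bound forms of IgG by their deposited descriptions and held few reads: LOC101908390 had 0 counts in HH and 21 in LL, and LOC101906441 had 2 in HH and 12 in LL.

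IGHM, the constant region of IgM, went the other way, with 4560 counts in HH and 2603 in LL. Scaled, these were 258 and 162 CPM, a log2 ratio of 0.67 (0.60 to 0.74). A further row described as a mu chain constant region, LOC101902461, was also higher in HH, with 4725 counts in HH and 3169 in LL and a log2 ratio of 0.44 (0.37 to 0.50). Neither lay past 2-fold. How reads that match both mu rows were counted is unknown here. The 2 rows may therefore not be independent, and their sum could count a read more than once. IGHE, the constant region of IgE, had 157 counts in HH and 109 in LL, with its log2 ratio at 0.39 (0.03 to 0.76) whose lower end is close to no difference. Taken over the gamma, mu and epsilon rows, the mu rows made up 17.6% of the counts in HH (17.3 to 18.0%) and 3.04% in LL (2.96 to 3.11%). There were 4.65 gamma counts per mu count in HH (4.55 to 4.76) and 31.9 in LL (31.1 to 32.8). No IgA heavy chain row was analysed here, and the 2 delta chain rows had 4 counts in HH and 0 in LL.

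**Figure D2:**
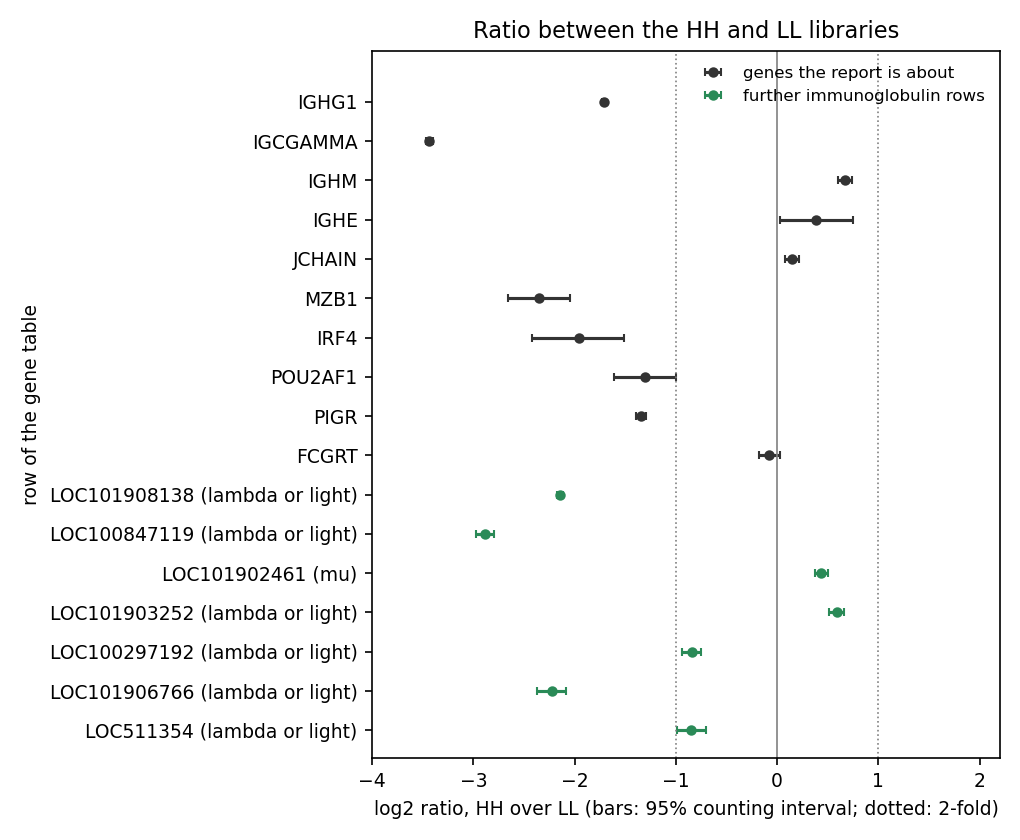
Log2 ratio of HH over LL for the 10 genes (black) and for the 7 further immunoglobulin rows with at least 1000 summed counts (green). Bars are 95% counting intervals from 1 library each, and dotted lines mark 2-fold; the IgG rows and most light chain rows lie left of 0, and IGHM, IGHE, JCHAIN, LOC101902461 and LOC101903252 lie right of it.

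The light chains, which pair with these heavy chains, were followed through rows found by their deposited descriptions. This search was added after the values had been seen. It brought the immunoglobulin rows to 47, of which 28 had counts and 16 had at least 100. Of the 16, 7 were lower in HH past 2-fold, 0 were higher and 9 were neither. Over all 12804 rows with enough counts, 1.0% were lower in HH and 1.87% higher. Nothing is read from the 7, which include IGHG1 and IGCGAMMA, chosen on this contrast, and light chain rows similar in sequence. The light chain row with the most counts, LOC101908138, described as a lambda variable region of the BL2 type, had 12059 counts in HH and 48560 in LL, with its log2 ratio at −2.15 (−2.18 to −2.12). LOC100847119, a lambda-like polypeptide, had 1229 in HH and 8243 in LL and the lowest ratio among the light chain rows with at least 100 counts, −2.88 (−2.97 to −2.80). LOC101906766 was at −2.23, LOC100297192 at −0.84 and LOC511354 at −0.85. LOC101903252 carries the same lambda-like description as LOC100847119 but went the other way, with 3855 counts in HH and 2330 in LL, with its log2 ratio at 0.59 (0.51 to 0.66). These rows are also near copies, so their single ratios are uncertain.

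As sums, the lambda and other light chain rows held 20530 counts in HH and 66214 in LL, with their log2 ratio at −1.83 (−1.85 to −1.80). Light chains made up 28.1% of light and heavy constant counts in HH (27.7 to 28.4%) and 25.8% in LL (25.7 to 26.0%). The balance of these summed light and heavy counts thus differed far less between the libraries than the amount of either. The light sum leans on LOC101908138, which held 58.7% of it in HH (58.1 to 59.4%) and 73.3% in LL (73.0 to 73.7%). It also includes variable region rows, while the heavy sum holds constant regions only. Kappa rows held 14 counts in HH and 10 in LL. All were described as variable regions and no kappa constant row was found, so the kappa share of light chain reads is unknown here. Lambda is the usual light chain of cattle. All immunoglobulin rows together took 0.422% of the HH counts (0.419 to 0.425%) and 1.57% of the LL counts (1.57 to 1.58%).

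**Figure D3:**
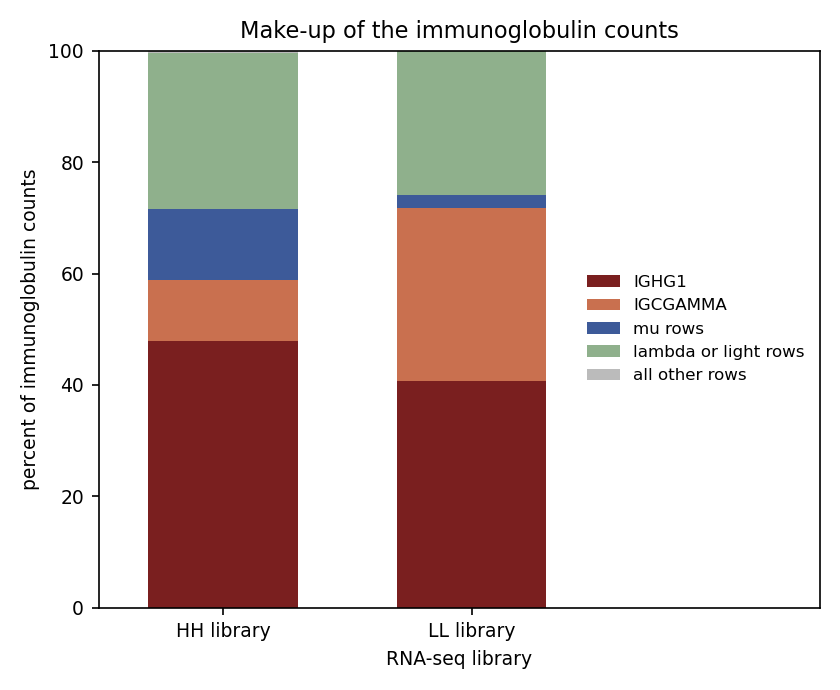
Stacked bars of the percent of all immunoglobulin counts on IGHG1, IGCGAMMA, the mu rows, the lambda and other light chain rows, and all other rows, in the HH library (73310 counts) and the LL library (256398 counts), 1 library each and not divided by gene length. The mu rows take 12.7% in HH and 2.25% in LL, and the light chain rows 28% in HH and 25.8% in LL.

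JCHAIN links IgM and IgA into polymers. It had 3359 counts in HH and 2758 in LL, or 190 and 172 scaled CPM. The log2 ratio was 0.15 (0.07 to 0.22), close to no difference and on the side of IGHM, not of IgG. Per 1000 mu counts there were 362 JCHAIN counts in HH (348 to 376) and 478 in LL (456 to 500). Per 1000 counts on IGHG1 and IGCGAMMA there were 77.8 in HH (75.1 to 80.6) and 14.97 in LL (14.4 to 15.5). These proportions follow from the ratios already given and are no separate result. No heavy chain row of IgA, which JCHAIN also links, was analysed beside them.

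MZB1, IRF4 and POU2AF1 were lower in HH, by differing amounts. MZB1, an endoplasmic reticulum protein that helps antibody assembly and secretion, had 109 counts in HH and 505 in LL, or 6.17 and 31.5 scaled CPM. Its log2 ratio was −2.35 (−2.66 to −2.05), 5.10-fold lower in HH. IRF4, a transcription factor needed for plasma cell formation, had 53 counts in HH and 187 in LL, with its log2 ratio at −1.96 (−2.42 to −1.51). POU2AF1, the B cell coactivator of octamer-binding factors, had 130 counts in HH and 292 in LL, with its log2 ratio at −1.30 (−1.61 to −1.002). Its interval ended at the 2-fold line, and was no longer wholly past it when counts were scaled by library totals, where its upper end was −0.95, or by DESeq2 size factors, where it was −0.99.

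The counts of 5 plasma cell genes were set against the IgG counts of the same library. IGHG1 and IGCGAMMA summed to a log2 ratio of −2.23, and the median over all rows with at least 20 counts was −0.01. Any row with a ratio above −2.23 therefore has a higher proportion in HH, whatever its kind. MZB1 had 2.52 counts per 1000 IGHG1 and IGCGAMMA counts in HH (2.07 to 3.05) and 2.74 in LL (2.51 to 2.99), and IRF4 had 1.23 in HH (0.92 to 1.61) and 1.02 in LL (0.87 to 1.17). The intervals overlap for both genes. POU2AF1 had 3.01 in HH (2.51 to 3.58) and 1.59 in LL (1.41 to 1.78), and these do not overlap. Nor do those of TNFRSF17, the survival receptor BCMA, with 0.93 in HH (0.66 to 1.26) and 0.44 in LL (0.35 to 0.55), or of DERL3, of the secretory pathway, with 4.70 in HH (4.07 to 5.40) and 1.88 in LL (1.69 to 2.09). These proportions were set up after the values had been seen. They follow from the ratios of the same 2 libraries and are no separate result. Overlap of their intervals concerns counting error only and is not a test.

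PIGR, the polymeric immunoglobulin receptor of the epithelial cell, had 4291 counts in HH and 9915 in LL, or 243 and 618 scaled CPM. The log2 ratio was −1.35 (−1.40 to −1.29), 2.54-fold lower in HH. Epithelial marker genes went the other way: 10 of 10 listed had ratios above 0, among them EPCAM at 0.25, ELF5 at 0.26 and KRT8 at 0.55. Their summed level was 8771 scaled CPM in HH and 5424 in LL, of which KRT19 alone gave 3469 and 1934. Per 1000 EPCAM counts there were 527 PIGR counts in HH (508 to 547) and 1588 in LL (1539 to 1640). Per 1000 ELF5 counts there were 235 in HH (228 to 243) and 714 in LL (696 to 733). These proportions follow from the ratios already given, with PIGR below 0 and both epithelial genes above it, and are no separate result. In the RefSeq gene order of assembly ARS-UCD2.0, PIGR sits between FCMR and FCAMR, genes for receptors that bind IgM. FCMR had 77 counts in HH and 40 in LL (log2 ratio 0.81, 0.24 to 1.40), and FCAMR had 15 in HH and 23 in LL (−0.75, −1.80 to 0.25). The FCAMR interval includes no difference.

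FCGRT encodes the heavy chain of the neonatal Fc receptor, which binds IgG and protects it from breakdown. It had 1515 counts in HH and 1451 in LL, or 85.8 and 90.4 scaled CPM, with a log2 ratio of −0.08 (−0.18 to 0.03). B2M, whose product is its light chain, had 10470 in HH and 8756 in LL (0.12, 0.08 to 0.16). Per 1000 B2M counts there were 145 FCGRT counts in HH (137 to 153) and 166 in LL (157 to 175). The interval of the FCGRT ratio includes no difference and ends far short of 2-fold, unlike that of PIGR.

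Related genes were read through 12 lists of 176 genes, written with earlier results of these data known. Of the 174 with a row, 137 reached 100 summed counts. Of these, 6 were past 2-fold higher in HH, 1 was lower in HH and 130 were neither. Over all 12804 rows with enough counts, 1.87% were higher in HH and 1.0% lower. These shares apply to each list below, so a count of 0 in a list of this size is not read as a result. The median log2 ratio over the 156 with at least 20 counts was 0.03, and over all 16249 such rows of the table it was −0.01. The antibody genes above, at a median of −1.33, were chosen for their values.

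Plasma cell genes other than those described had 0 of 14 members past 2-fold and a median of −0.45 (15 genes), with 12 below 0 and 3 above. TNFRSF17 had 40 counts in HH and 81 in LL (−1.16, −1.74 to −0.59). DERL3 and FKBP11, also of the secretory pathway, were at −0.91 and −0.70, and SLAMF7, a surface marker of plasma cells, was at −0.89. Those with the most counts were XBP1 (−0.41) and SEC11C (−0.49), which secretory cells in general use, ELL2 (−0.22) and CREB3L2 (0.22). PRDM1, the repressor that sets plasma cell fate, was at −0.27, and SDC1, which epithelium also expresses, at 0.74. FCRL5 had 6 counts in HH and 0 in LL.

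B cell genes had few counts: 4 of 20 reached 100 summed counts, 0 were past 2-fold, and the median over 13 genes was −0.39. SPIB, a transcription factor of B cells, had 2 counts in HH and 0 in LL. CD79A and CD79B, the signalling pair of the B cell receptor, had 25 and 14 counts in HH and 62 and 47 in LL, at −1.45 (−2.18 to −0.76) and −1.88 (−2.86 to −0.999). MS4A1, which encodes CD20, had 10 in HH and 21 in LL. BLK, a kinase of B cell receptor signalling, was at −0.09, with an interval that includes no difference. The listed genes with the most counts, EBF1 (0.11), CIITA (0.02), BLNK (−0.70) and BTK (−1.35), also act in other cells.

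**Figure D4:**
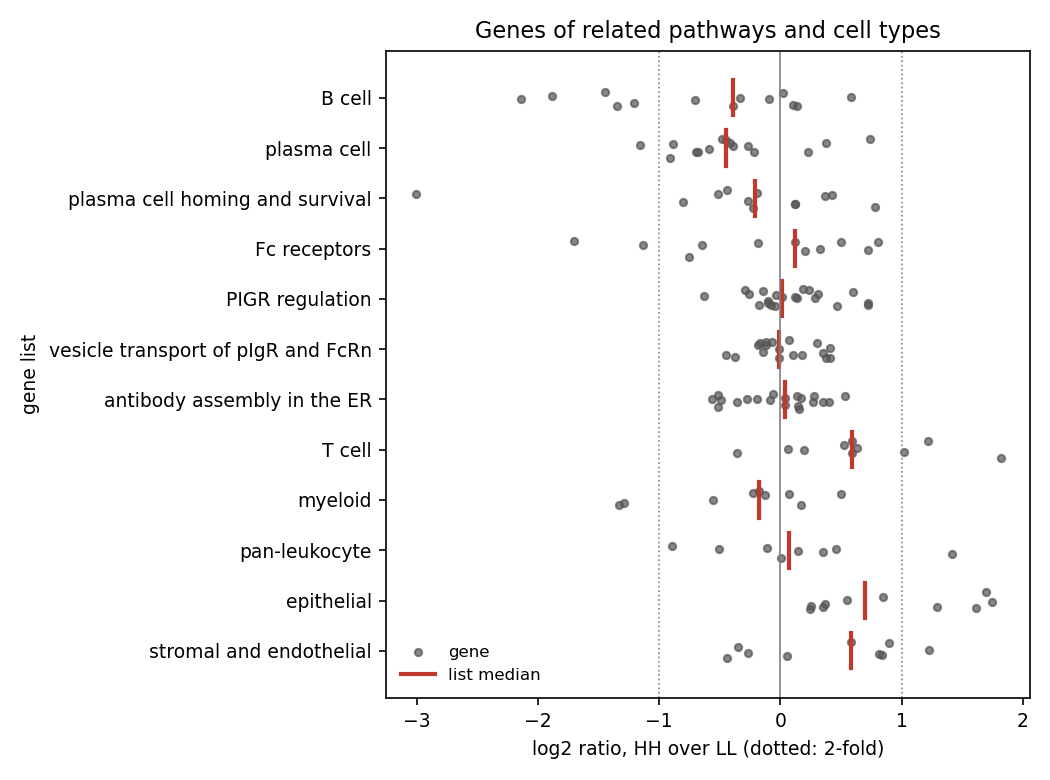
Log2 ratio of HH over LL for each listed gene with at least 20 summed counts (grey points) and the list median (red bar), 1 library per code; dotted lines mark 2-fold. Medians run from −0.45 for plasma cell genes to 0.70 for epithelial genes.

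Genes that attract plasma cells and keep them alive had 0 of 10 past 2-fold and a median of −0.21 (12 genes). CCL28, the mammary chemokine for antibody-secreting cells, had 840 counts in HH and 895 in LL (−0.23, −0.37 to −0.09), and its receptor gene CCR10 had 20 in HH and 26 in LL. CXCL12 was at −0.27, CXCR4, its receptor, at 0.78, IL6ST at −0.19 and IL6R at −0.81. CCR9, a homing receptor, had 3 counts in HH and 22 in LL (−3.01, −5.40 to −1.28), under the count minimum, and IL21 had 0 in both libraries.

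Among Fc receptor genes 1 of 8 was past 2-fold. That was FCER2, the low-affinity IgE receptor CD23 of B cells, with 55 counts in HH and 163 in LL, with its log2 ratio at −1.70 (−2.17 to −1.26). FCGR2B, the inhibitory IgG receptor, was at 0.50, TRIM21, an antibody receptor of the cytosol, at 0.21, LGALS3 at 0.33, and the list median was 0.12. Genes known to regulate PIGR or that lie in its signalling routes had 0 of 20 past 2-fold and a median of 0.02. IRF1, an interferon-induced activator of PIGR in human cells, was at 0.72 (0.58 to 0.85), on the other side from PIGR, and PRLR, the prolactin receptor, at −0.63 (−0.69 to −0.56). RELA, a subunit of NF-kappaB, was at 0.28, and the cytokine receptor genes IFNGR2 and IL17RA were at −0.03 and −0.08. Genes of vesicle transport had 0 of 18 past 2-fold and a median of −0.01: the recycling GTPase genes RAB11A and RAB25 were at −0.17 and 0.38, RAB3D at −0.45, RAB5C at −0.01 and the motor gene MYO5B at −0.38. Genes of antibody folding in the endoplasmic reticulum had 0 of 20 past 2-fold and a median of 0.04. Its members with the most counts, CALR (0.27), HSP90B1 (0.40), P4HB (−0.28) and CANX (0.15), are used by all secretory cells.

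Markers of other cells were read for comparison. T cell genes had a median of 0.59 (10 genes), 9 of 10 above 0, and a summed level of 88.3 scaled CPM in HH and 55.4 in LL; CD5, on T cells and some B cells, was past 2-fold at 1.82 (1.16 to 2.53), and CD3E and ZAP70 were at 1.02 and 0.52. General leukocyte genes, 5 above 0 and 3 below, summed to 303 in HH and 253 in LL, of which LCP1 alone gave 59.6 and 22.4, with PTPRC, which encodes CD45, at 0.46, LAPTM5 at 0.01, CORO1A at −0.11 and LCP1, an actin-bundling gene, past 2-fold at 1.41 (1.24 to 1.59). CD48 was at −0.90 (−1.34 to −0.47) and CD53 at −0.51 (−0.89 to −0.13). Myeloid genes, 3 above 0 and 6 below, summed to 233 in HH and 259 in LL, with CD14 at −0.18, CD68 at −0.23, CD163 at 0.07 and CSF1R at −0.13. Lower in HH among these were CSF3R at −1.29 (−1.95 to −0.66), CXCR2 at −1.33 (−2.35 to −0.38) and AIF1 at −0.56 (−0.94 to −0.17), with intervals below 0 but not past 2-fold. Of the epithelial genes 4 of 10 were past 2-fold higher in HH: KRT18 (1.74), KRT14 (1.70), CLDN4 (1.61) and KRT5 (1.29). Stromal and endothelial genes had 0 of 9 past 2-fold and a median of 0.58, with 6 above 0 and 3 below. Above 0 were LUM at 1.23, ACTA2 at 0.90, COL1A1 at 0.84, COL1A2 at 0.82, PDGFRA at 0.58 and DCN at 0.06. Below 0 were VWF at −0.44, CDH5 at −0.35 and PECAM1 at −0.27. None of the T cell, leukocyte, myeloid, epithelial or stromal genes was at 0 in either library. The cultures are labelled epithelial and their epithelial markers were abundant, but they also held reads of these other cell types; the part of cell make-up in the antibody ratios was not tested.

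The genes nearest to IGCGAMMA and to PIGR in ratio were named by rule, from 5850 rows with at least 1000 summed counts. The likeness is a distance on the log2 ratio of 1 HH and 1 LL library. Nearest to IGCGAMMA at −3.44 were C4BPA (−3.84), which restrains complement, the light chain row LOC100847119 (−2.88), the uncharacterised LOC101906931 (−2.81), CP (−2.65), a copper-carrying plasma protein, and M-SAA3.2 (−2.60), which encodes an acute-phase protein of the udder. No row lay within 0.4 of it. Nearest to PIGR at −1.35 were ADCK3 (−1.36), CTSC (−1.38), a lysosomal protease, HID1 (−1.31), LOC101905228 (−1.30) and CHI3L1 (−1.28), a secreted chitinase-like protein. All 5 were within 0.07 of PIGR.

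The small RNA libraries, which the choice of genes did not use, held 7087726 miRNA reads for HH and 9059038 for LL. Of 143 precursors with at least 100 summed reads, 16.8% were higher in HH and 11.2% lower in HH past 2-fold, and their median log2 ratio was 0.24. It was 0.06 with DESeq2 size factors and −0.06 with upper-quartile factors, so ratios are best read relative to that median. Precursors known for their abundance in leukocytes were read for comparison. The tags below show miR-155, made by activated B cells and other immune cells, in its full and its shortened form, then miR-146b, and then miR-150, which marks mature lymphocytes, and miR-223, which marks myeloid cells. They are the deposited read sequences, 5′ to 3′, and capitals mark the seed, bases 2 to 8.
bta-mir-155, full: tTAATGCTaatcgtgataggggt
bta-mir-155, shortened: tTAATGCTaatcgtgata
bta-mir-146b: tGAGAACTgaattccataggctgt
bta-mir-150: tCTCCCAAcccttgtaccagt
bta-mir-223: tGTCAGTTtgtcaaataccccaa

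The precursor bta-mir-155 had 416 reads in HH and 1494 in LL, or 57.6 and 168 scaled RPM (reads per 1000000 miRNA reads), which gave a log2 ratio of −1.54 (−1.71 to −1.39). The difference lay in short tags. The 18 nt tag printed above had 33 reads in HH and 782 in LL, while the 23 nt tag had 82 in HH and 125 in LL. Tags of at least 21 nt made up 80.3% of its reads in HH (76.1 to 84.0%) and 28.2% in LL (26.0 to 30.6%). Over all miRNA reads the same share was 93.2% in HH and 81.0% in LL. Counting only such tags gave 334 reads in HH and 422 in LL, with its log2 ratio at −0.04 (−0.25 to 0.17) with the scaling unchanged. With scaling factors recomputed from such tags it was −0.55 (−0.77 to −0.34). The ratio thus lay past 2-fold only with the tags of 18 to 20 nt counted.

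**Figure D5:**
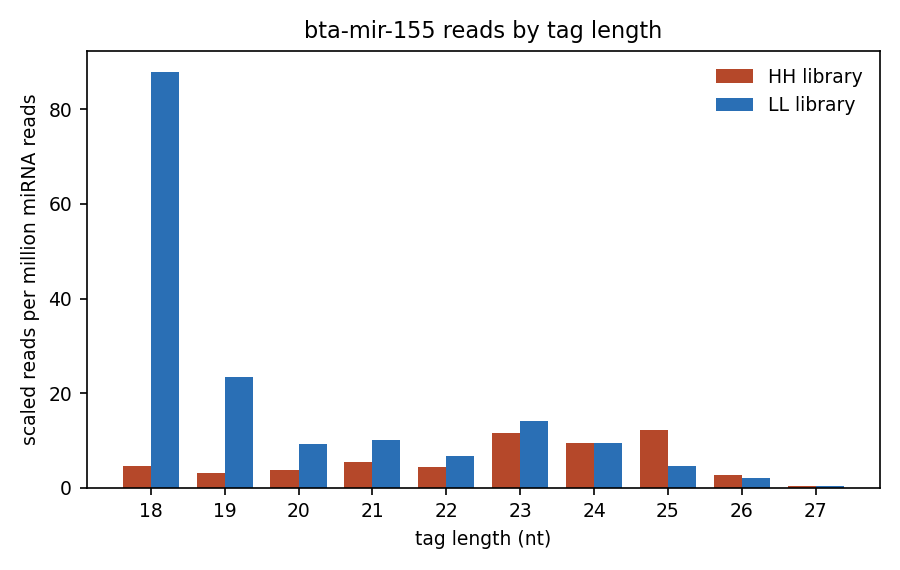
Scaled RPM of bta-mir-155 at each tag length from 18 to 27 nt, HH bars left of LL bars, 1 library each. At 18 nt the bars stand at 4.57 in HH and 88.0 in LL, and at 24 nt at 9.55 in HH and 9.56 in LL.

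The precursor bta-mir-146b, an immune-induced miRNA, had 147 reads in HH and 50 in LL, all in tags of at least 21 nt, with a log2 ratio of 1.86 (1.38 to 2.35). With scaling factors recomputed from such tags it was 1.34 (0.87 to 1.83), no longer wholly past 2-fold. Its seed, GAGAACT, was also that of a 20 nt tag assigned to bta-mir-146a, with 1 read in HH and 0 in LL. That tag is the same as the first 20 bases of the bta-mir-146b tag printed above. The 1 LL read of bta-mir-146a was a 22 nt tag that starts 1 base earlier. The precursor bta-mir-150 had 0 reads in HH, which allows up to 0.415 scaled RPM, and 1 in LL. In the RefSeq order its gene lies directly before FCGRT. The precursor bta-mir-223 had 3 reads in HH and 0 in LL, and bta-mir-142, found in all blood cell lineages, had 5 in HH and 3 in LL. The reads of these lymphoid and myeloid miRNAs were thus at or near 0 in both small RNA libraries. The precursor bta-mir-21, active in many tissues, had 59300 reads in HH and 37918 in LL (0.94, 0.93 to 0.96). Tags of at least 21 nt made up 71.5% of these in HH and 26.5% in LL, and with only such tags counted and scaled anew its log2 ratio was 1.86 (1.83 to 1.89), past 2-fold higher in HH. With upper-quartile factors it was 0.64.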

How the data were processed

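The authors deposited raw read counts: 1 gene table with a column each for HH and LL, and, for each small RNA library, counts of distinct tags, all of the class miRNA. Per the labels' protocols the libraries came from the Ion Total RNA-Seq Kit v2. No aligner, counter, genome build, strand setting or annotation is stated in these sources. Columns were matched to the title codes.

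Scaling used TMM factors of edgeR 4.0.16 in R 4.3.3, giving CPM and RPM. The log2 ratio of HH over LL has the exact 95% interval of the HH share of both counts (scipy 1.17.1). Calls needed the whole interval past 2-fold and 100 summed counts. No p-value was computed with 1 library per code. Tags were summed per precursor. Scaling by totals, upper quartile or DESeq2 1.42.0, scaling on mRNA rows or without immunoglobulin and casein rows, other minimums, a point ratio and a 1.5-fold limit were tried. The interval was tried on simulated counts with counting error only and equal library sizes. That trial cannot speak to differences between cultures or to scaling. Depths are 17369144 counts in HH and 16318951 in LL, and 7087726 and 9059038 miRNA reads. No molecular identifiers are described, so PCR copies may count as separate reads.

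Genes, lists and rules were chosen with earlier results of these data known. Named genes are the 10 genes, immunoglobulin rows with at least 1000 summed counts, and the 5 rows nearest in ratio to IGCGAMMA and PIGR. From each list, those past 2-fold and up to 4 of the most abundant others are named. Further list genes named for their known roles were picked after their values were seen. The stromal and endothelial list is given in full, also after its values were seen. List genes were matched by symbol. Some list genes are not reported here by name. A planned search of promoters for motifs was not run, since promoter sequences were not used here. RefSeq (ARS-UCD2.0) gave only gene order.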

Additional observations from a re-analysis of the deposited data

How the results depend on the processing

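Each difference rests on 1 HH and 1 LL library, so no value has a replicate check, no library could be left out, and the intervals cover counting error only. No paired analysis was possible because each code has a single library of each kind and the result comes from no test. Under the 5 other scalings the ratios of the 10 genes moved by at most 0.05 (log2) and none of the 50 values changed sign for a called gene. The genes lower in HH past 2-fold numbered 5 in place of 6 when scaled by totals or by DESeq2 size factors, which left out POU2AF1. With a 1.5-fold limit 1 gene, IGHM, was higher in HH in place of 0. Of the listed genes, those lower in HH numbered 3 with a minimum of 20 summed counts or with no minimum, 5 by the point ratio and 7 with a 1.5-fold limit, in place of 1, and those higher in HH numbered 13 with the 1.5-fold limit in place of 6.

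The summed immunoglobulin rows had a log2 ratio of −2.09 by symbol or match and −1.94 with rows added by description. The ratio of bta-mir-155 was −1.73 with DESeq2 size factors, −1.85 with upper-quartile factors, −0.55 with tags of at least 21 nt scaled anew and −0.038 with such tags under the scaling of all tags, the last added after seeing the data. Rows with few reads, such as IRF4 or the B cell genes, are limited by depth.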
